A study of Mus musculus with 6 samples.

Results

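The genes of the mitochondrial ribosome were compared between Dhps knockout and control macrophages of the mouse. They were taken as the rows of the deposited count table whose symbol begins with Mrpl or Mrps followed by a number, which gave 77 of 10551 genes, 48 named for the large and 29 for the small subunit. The rule reads only the symbol. RNA sequencing covered bone marrow-derived macrophages, cells grown out of marrow progenitors, of strain C57BL/6J. The 3 knockout libraries carry the genotype that the labels call Dhps_delta_Myel, a knockout specific to macrophages, and the 3 other libraries are labelled control. The sources used here do not give the Cre driver, the deleted exons, the age of the mice, any stimulus given to the cells or the source of the replicates (separate mice, cultures or aliquots), so that p-values measure only the spread between these libraries, which may be technical.

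The mitochondrial ribosome is a separate translation machine inside mitochondria. It makes the few membrane proteins of the respiratory chain and ATP synthase that mitochondrial DNA encodes, while all of its own proteins are encoded in the nucleus, made in the cytosol and imported. Its large subunit holds the peptidyl transferase centre and the exit tunnel, and its small subunit binds the messenger RNA and holds the decoding site. Many of its proteins have bacterial counterparts and the others are specific to mitochondria. Dhps encodes deoxyhypusine synthase, which starts the hypusine modification of the cytosolic translation factor eIF5A, and hypusinated eIF5A is known to support the synthesis of mitochondrial proteins in macrophages. Counts of messenger RNA, as here, do not measure that synthesis.

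The libraries held between 12960793 and 16224818 counts in the knockout group and between 11648710 and 15382816 in the control group. Levels are given as normalized CPM, counts per 1000000 counts of the library after scaling by the trimmed mean of M values. Dhps itself stood at 13.2, 13.6 and 18.3 CPM in knockout libraries, against 24.1, 20.9 and 23.4 CPM in control libraries. All 3 knockout values lay under all 3 control values, but the log2 change, knockout over control, of -0.59 (SE 0.14) did not pass (adjusted p = 0.214 by edgeR's quasi-likelihood fit to all genes). All 10 macrophage identity markers of a fixed list were measured, with summed levels of 5992 to 6974 CPM in knockout libraries and 6472 to 7051 CPM in control libraries. Of the markers of other cell types, 5 of 14 neutrophil markers rose in knockout libraries at an adjusted p under 0.05, against 0.104% of all genes in either direction. The summed levels of the 14 were 1356 to 1597 CPM in knockout libraries, against 846 to 1171 CPM in control libraries. Of 6 stromal markers, 3 rose at the same limit (19.9 to 25.9 CPM summed in knockout libraries, 11.6 to 14.5 CPM in control libraries). None of the 10 monocyte, 8 megakaryocyte and platelet, or 4 mast cell and basophil markers measured passed at an adjusted p under 0.05, nor did Cd79b, the only measured gene of the 10 on the list for B, T and NK cells, and no gene of the erythroid list was in the table. At an unadjusted p under 0.05, 11 of 14 neutrophil, 3 of 6 stromal and 5 of 10 monocyte markers were higher, against 3.84% of all genes. So were 4 of 8 megakaryocyte and platelet and 2 of 4 mast cell and basophil markers, and 1 megakaryocyte and platelet marker, Pf4, was lower. Among the 10 macrophage identity markers, 1 was lower and 0 were higher at that limit, and 2.64% of all genes were lower. The groups did not overlap in 9 of the neutrophil and 3 of the stromal markers, all higher, against 11.2% of all genes (5.73% higher). Nor did they in 3 of the monocyte markers, 6 of the megakaryocyte and platelet markers (5 higher and 1 lower) and 2 of the mast cell and basophil markers. In 2 of the macrophage identity markers the knockout values lay under all control values, against 5.45% of all genes. The part of these cell types in the results below was not tested. Since these are bulk samples, fewer cells of a type and less RNA per cell cannot be told apart.

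None of the 77 mitochondrial ribosomal protein genes rose or fell in the knockout libraries at an adjusted p under 0.05 over all genes (edgeR's quasi-likelihood test, smallest adjusted p = 0.749). Of all 10551 genes, 0.104% passed this limit. DESeq2 and limma-voom also called 0 members. At an unadjusted p under 0.05, 1 member was higher (Mrpl32) and 2 were lower (Mrpl42 and Mrpl57), 3 of 77, against 6.48% of all genes, of which 3.84% were higher and 2.64% lower. The same limit was met by 0 members in DESeq2, against 5.05% of all genes, and by 1 in limma-voom, against 6.31% of all genes. The share of members at that limit was thus no larger than the share of all genes. In 5 of 77 members, all on the lower side, the 3 knockout values did not overlap the 3 control values, against 11.2% of all genes (5.45% on the lower side and 5.73% on the higher side). These 5 were Mrpl57, Mrpl34, Mrpl48, Mrps18c and Mrps23.

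**Figure D1:**
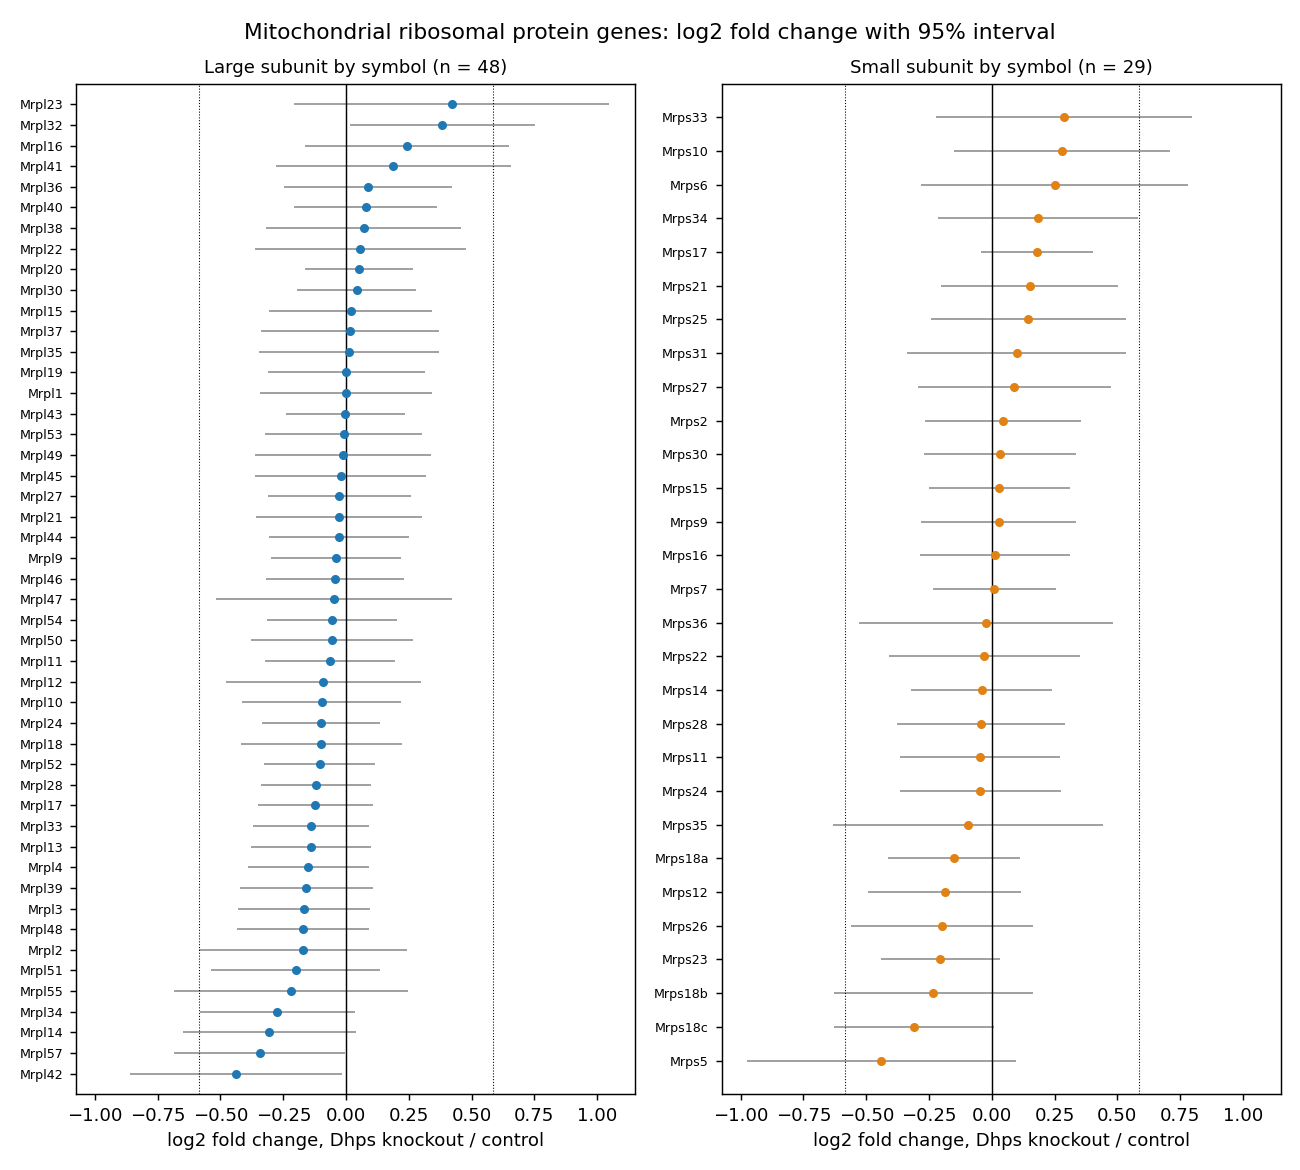
Log2 change (Dhps knockout over control, horizontal axis) of each of the 77 members with its 95% interval, from edgeR's quasi-likelihood fit, for symbols of the large subunit (left panel) and the small subunit (right panel). Dotted lines mark a change of 1.5-fold either way. The intervals of Mrpl42, Mrpl32 and Mrpl57 leave out 0 before adjustment, and 62 of 77 intervals lie between the dotted lines.

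The fitted changes of the members were small. They ran from -0.44 for Mrps5 and Mrpl42 to 0.42 for Mrpl23 on the log2 scale. For 62 of 77 members the 95% interval lay within a 1.5-fold change either way (80.5%, against 71.9% of all genes), 40 of them in the large and 22 in the small subunit. The half-width of the interval ranged from 0.21 for Mrpl20 to 0.63 for the least well measured, Mrpl23. For the remaining 15 members a 1.5-fold change in at least 1 direction lay inside the interval.

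Promoter sequences are shown for the members at which the comparison came nearest to a difference, the 3 of the large subunit with an unadjusted p under 0.05 and the member of the small subunit with the smallest p. They are RefSeq windows of assembly GRCm38.p6 (the assembly that mm10 names), printed 5′ to 3′ on the strand of the gene, from 250 bases before to 50 bases after the annotated start. Mrpl42 is read from chr10:95501900-95502199 on the minus strand, Mrpl32 from chr13:14612988-14613287 on the minus strand, Mrpl57 from chr14:57825989-57826288 on the plus strand and Mrps18c from chr5:100798509-100798808 on the plus strand. Capitals mark matches on either strand to the letters searched for 3 factors known to bind at promoters of genes for mitochondrial proteins: CGCATGCG for NRF1, CCGGAAG for the ETS family with GABPA, and AAGATGGCG for YY1.
Mrpl42: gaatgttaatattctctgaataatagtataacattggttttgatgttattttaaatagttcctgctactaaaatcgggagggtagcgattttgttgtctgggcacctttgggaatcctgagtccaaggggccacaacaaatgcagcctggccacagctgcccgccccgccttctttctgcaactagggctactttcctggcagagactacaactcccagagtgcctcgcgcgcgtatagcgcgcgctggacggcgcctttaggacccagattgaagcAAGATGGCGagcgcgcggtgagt
Mrpl32: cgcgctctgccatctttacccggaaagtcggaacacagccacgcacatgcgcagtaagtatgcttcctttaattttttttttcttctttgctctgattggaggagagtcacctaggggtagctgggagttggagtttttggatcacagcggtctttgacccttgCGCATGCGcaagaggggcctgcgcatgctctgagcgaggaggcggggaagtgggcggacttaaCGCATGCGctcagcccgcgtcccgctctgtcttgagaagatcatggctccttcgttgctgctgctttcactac
Mrpl57: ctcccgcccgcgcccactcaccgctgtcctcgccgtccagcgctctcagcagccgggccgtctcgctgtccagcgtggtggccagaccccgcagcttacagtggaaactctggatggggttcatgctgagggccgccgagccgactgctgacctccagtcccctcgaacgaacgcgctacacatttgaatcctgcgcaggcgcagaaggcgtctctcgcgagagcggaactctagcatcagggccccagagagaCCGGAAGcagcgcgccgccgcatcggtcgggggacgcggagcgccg
Mrps18c: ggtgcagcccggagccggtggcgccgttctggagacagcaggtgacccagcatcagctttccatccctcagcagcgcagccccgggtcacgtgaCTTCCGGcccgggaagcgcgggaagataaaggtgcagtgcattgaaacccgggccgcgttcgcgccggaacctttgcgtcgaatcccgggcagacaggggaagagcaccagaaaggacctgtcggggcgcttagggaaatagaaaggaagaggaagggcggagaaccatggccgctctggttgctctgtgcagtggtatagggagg
The Mrpl32 window holds CGCATGCG, which reads the same on both strands, at 2 places that begin 86 and 23 bases before the start. The Mrpl57 window has an ETS match that begins at base 5 after the start, and in the Mrps18c window the ETS letters lie on the opposite strand and begin 156 bases before the start. In the Mrpl42 window the YY1 letters begin at base 28 after the start. A match is a run of letters and not a measured binding site.

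The search covered 74 windows of 68 members, and the other 9 members were not searched. ETS letters were found in 33.8% of member windows, against 18.5% of the windows of other measured genes and 8.86% of all 32851 windows. NRF1 letters were found in 9.46% of member windows, against 4.11% and 1.87%, and YY1 letters in 10.8%, against 3.25% and 1.40%. The ETS letters end and the YY1 letters begin with AAG, so that 1 stretch can hold both, but in the member windows no matches to different motifs overlapped. The 25 members with ETS letters had a median log2 change of -0.12 with 20 below 0, and the 43 searched members without them had a median of -0.011 with 22 below 0. With a trend over gene length removed, these medians were -0.090 and 0.0063. Among other measured genes the split by ETS letters gave medians of -0.021 in 1739 genes and -0.00030 in 6279 genes, with 55.4% and 50.1% below 0. The 7 members with NRF1 letters had a median of -0.097 with 5 below 0, and the 61 without them -0.027 with 37 below 0. With the length trend removed, these medians were -0.071 and 0.0059. Other measured genes split by NRF1 letters had medians of -0.0081 (52.9% below 0) and -0.0047 (51.2% below 0). The 8 members with YY1 letters had a median of -0.017 with 4 below 0, and the 60 without them -0.029 with 38 below 0. With the length trend removed, these medians were 0.0027 and 0.0005. Other measured genes split by YY1 letters had medians of -0.023 (55.2% below 0) and -0.0038 (51.1% below 0). These 3 splits were made after the values were seen and were not tested, and each with-group shares the 6 libraries with its without-group.

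Among members of the large subunit, Mrpl42, which encodes a protein specific to the mitochondrial ribosome, stood at 9.56, 5.58 and 6.68 CPM in knockout libraries, against 8.28, 10.9 and 10.4 CPM in control libraries. The groups overlapped, since knockout library 1 lay above control library 1. The log2 change was -0.44 (SE 0.20, 95% interval -0.86 to -0.018, unadjusted p = 0.042, adjusted p = 0.749 in edgeR's quasi-likelihood test). Mrpl42 lies on chromosome 10 from 95480806 to 95501927 on the minus strand (mm10).

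Mrpl32 encodes a large subunit protein with a bacterial counterpart, whose maturation by a protease of the inner membrane is known to precede assembly of the ribosome. It stood at 14.7, 9.07 and 12.8 CPM in knockout libraries, against 8.85, 9.13 and 10.2 CPM in control libraries. Knockout library 2 lay within the range of the controls and the other 2 lay above it. The log2 change was 0.38 (SE 0.17, 95% interval 0.014 to 0.75, unadjusted p = 0.043, adjusted p = 0.749 in edgeR's quasi-likelihood test). The gene spans bases 14610301 to 14613037 of chromosome 13 on the minus strand.

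Mrpl57, another protein found in mitochondrial ribosomes and not in bacterial ones, stood at 7.91, 7.44 and 7.30 CPM in knockout libraries, against 10.9, 9.0 and 8.87 CPM in control libraries. All 3 knockout values were under the lowest control value. The log2 change was -0.34 (SE 0.16, 95% interval -0.69 to -0.0023, unadjusted p = 0.049, adjusted p = 0.760 in edgeR's quasi-likelihood test). It lies on chromosome 14 from 57826239 to 57828745 on the plus strand.

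The next members of the large subunit by p were Mrpl34, Mrpl14 and Mrpl23, which all have bacterial counterparts. Mrpl34 stood at 8.94, 9.84 and 10.3 CPM in knockout libraries and at 12.6, 11.7 and 10.9 CPM in control libraries, with no overlap (log2 change -0.27, adjusted p = 0.835 in edgeR's test). Mrpl14, at the interface between the subunits, averaged 9.24 ± 1.13 CPM in knockout and 11.4 ± 1.73 CPM in control libraries (SD, n = 3 each, log2 change -0.30). Mrpl23, near the exit of the tunnel, stood at 7.36, 3.25 and 4.11 CPM in knockout libraries, against 4.28, 4.18 and 2.43 CPM in control libraries, so that knockout library 1 alone lay above the controls. Its log2 change of 0.42 was 0.016 without that library, the adjusted p with all libraries was 0.882 in edgeR's test, and the annotation holds a pseudogene named after it.

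**Figure D2:**
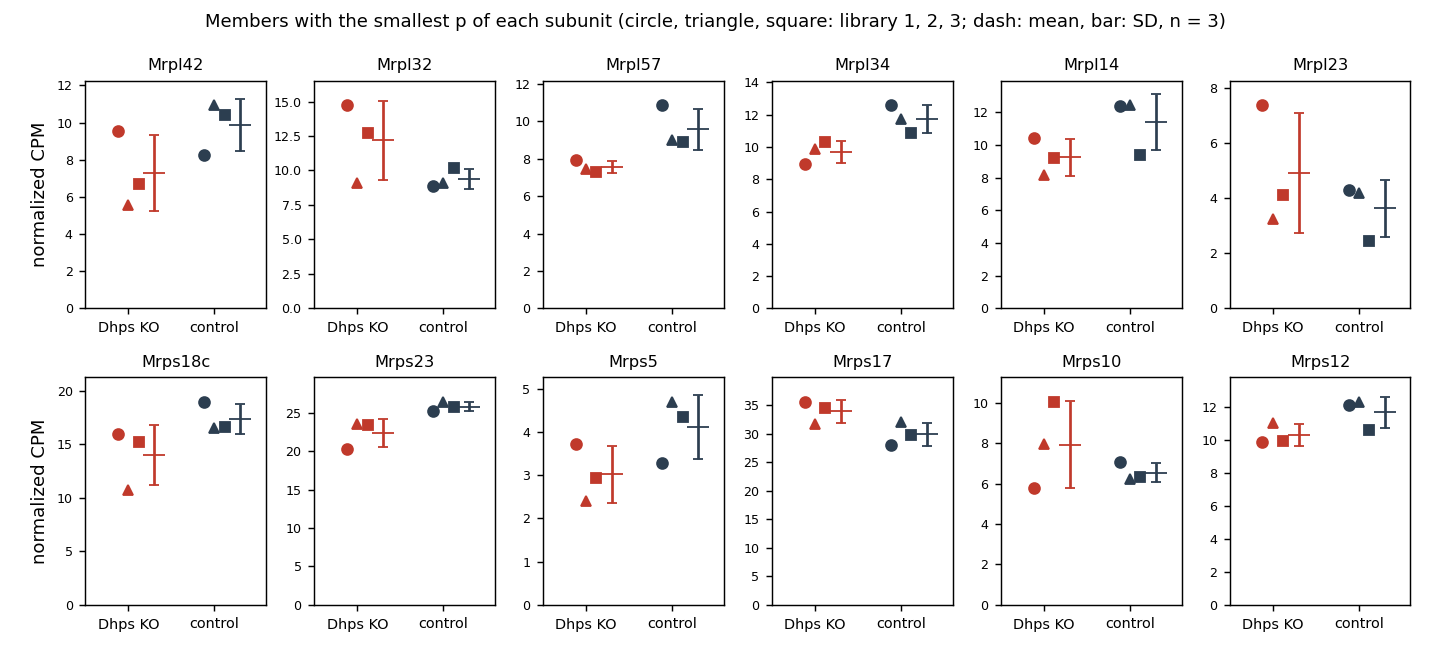
Normalized CPM (vertical axis, from 0) in each library of the 6 members with the smallest p in each subunit, with Dhps knockout libraries on the left and control libraries on the right of each panel. Circles, triangles and squares are libraries 1, 2 and 3, dashes the mean and bars the SD (n = 3). The groups do not overlap for Mrpl57, Mrpl34, Mrps18c and Mrps23, and they overlap for the other 8.

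Among members of the small subunit, Mrps18c had the smallest p. It encodes the paralog that takes the place of bacterial S18. It stood at 15.96, 10.8 and 15.2 CPM in knockout libraries, against 19.0, 16.5 and 16.6 CPM in control libraries, and the groups did not overlap. The log2 change was -0.31 (SE 0.15, 95% interval -0.63 to 0.0094, unadjusted p = 0.056, adjusted p = 0.795 in edgeR's quasi-likelihood test), and -0.16 without knockout library 2. It lies on chromosome 5 from 100798759 to 100804467 on the plus strand, and 32.7% of its exonic bases are also exonic in Gm43511 on the same strand, so that part of its reads could belong to either.

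The fitted changes of its paralogs were smaller. Mrps18a averaged 22.4 ± 2.05 CPM in knockout and 24.9 ± 3.20 CPM in control libraries (SD, n = 3 each), a log2 change of -0.15. Mrps18b stood at 6.26, 5.11 and 5.27 CPM in knockout libraries and at 7.07, 6.56 and 5.91 CPM in control libraries, a log2 change of -0.23, and 60.0% of its exonic bases are shared with Gm16279 on the opposite strand. The adjusted p was 0.908 for both in edgeR's test, and in each the groups overlapped. In levels per kilobase of the deposited gene length, Mrps18c had 31.2 CPM, Mrps18a 27.4 CPM and Mrps18b 5.73 CPM over the 6 libraries.

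Mrps23, specific to mitochondrial ribosomes, stood at 20.2, 23.6 and 23.4 CPM in knockout libraries, against 25.2, 26.4 and 25.7 CPM in control libraries, with no overlap (log2 change -0.21, adjusted p = 0.836 in edgeR's test). Mrps5 averaged 3.02 ± 0.659 CPM in knockout and 4.11 ± 0.734 CPM in control libraries (log2 change -0.44), and Mrps12, a protein of the decoding site, 10.3 ± 0.671 CPM in knockout and 11.7 ± 0.947 CPM in control libraries (-0.19, SD, n = 3 each). On the higher side, Mrps17 stood at 35.6, 31.7 and 34.5 CPM in knockout libraries, against 28.1, 32.1 and 29.7 CPM in control libraries (log2 change 0.18, adjusted p = 0.849). Mrps10 stood at 5.78, 7.98 and 10.1 CPM in knockout libraries, against 7.07, 6.24 and 6.35 CPM in control libraries (0.28, adjusted p = 0.893). Mrps5, Mrps12, Mrps17 and Mrps10 all have bacterial counterparts, and in all 4 the groups overlapped.

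Taken by subunit, the 48 genes of the large subunit had a median log2 change of -0.046 with 33 below 0. The 29 genes of the small subunit had a median of 0.010 with 14 below 0. Over all genes the median was -0.0044 and 51.3% lay below 0, against 47 of the 77 members. The difference between the 2 medians, large minus small, was -0.057, which is a description and was not tested. It was -0.011 without knockout library 1 and lay between -0.079 and -0.050 with each other library left out. Members are short, with a median deposited length of 1053 bases against 2958 bases over all genes. Over all genes, changes in short genes were fitted lower, and at the members' median length the trend stood at -0.044. With this trend removed, the large subunit had a median of -0.011, the small subunit one of 0.047, and 39 of 77 members lay below 0.

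**Figure D3:**
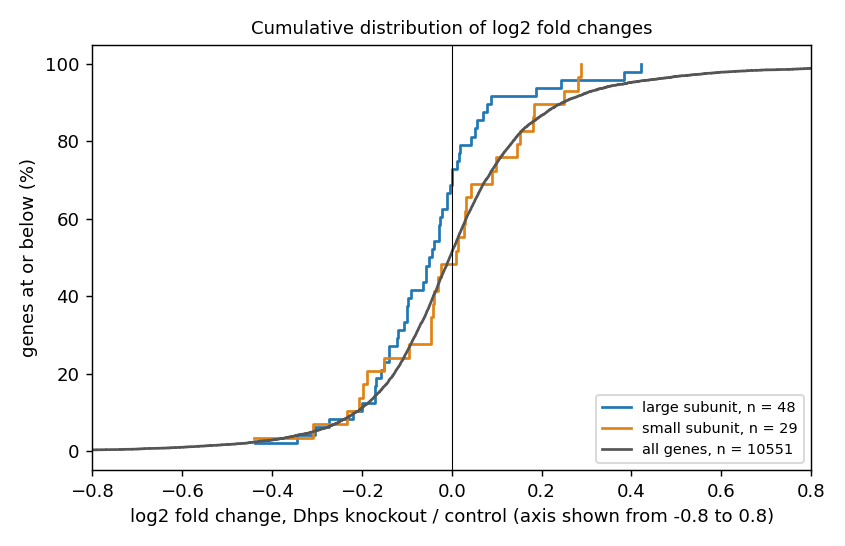
Share of genes (vertical axis, %) at or below each log2 change of Dhps knockout over control (horizontal axis, shown from -0.8 to 0.8) for the large subunit, the small subunit and all genes. The large subunit curve crosses 0 above the curve of all genes, with 33 of 48 genes below 0, and the small subunit curve has 14 of 29 genes below 0.

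Some symbols do not name the subunit in which the protein sits. Mrps18a and Mrps30 encode proteins of the large subunit, and Mrps36 is now known as a component of the 2-oxoglutarate dehydrogenase complex and not of the ribosome. Mrps30 averaged 11.2 ± 0.558 CPM in knockout and 11.03 ± 0.882 CPM in control libraries, and Mrps36 4.39 ± 0.990 CPM in knockout and 4.49 ± 0.890 CPM in control libraries (SD, n = 3 each). Placed by position, with Mrps36 left out, the large subunit had 50 genes, a median of -0.046 and 34 below 0. The small subunit then had 26 genes, a median of 0.012 and 12 below 0. The 46 members with a bacterial counterpart had a median log2 change of -0.040 with 26 below 0, and the 30 members specific to mitochondria had a median of -0.028 with 20 below 0.

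The summed level of the large subunit was 788, 766 and 797 CPM in knockout libraries, against 817, 853 and 795 CPM in control libraries. That of the small subunit was 357, 326 and 346 CPM in knockout libraries, against 344, 356 and 338 CPM in control libraries. In both sums the groups overlapped. The ratio of the large to the small sum was 2.20, 2.35 and 2.30 in knockout libraries and 2.37, 2.397 and 2.36 in control libraries. Each knockout library had a lower ratio than each control library, by a margin smaller than the SD of the knockout group (2.29 ± 0.0733 in knockout and 2.37 ± 0.0210 in control libraries, SD, n = 3 each). Where each gene was first divided by its length the ratio was 2.21, 2.45 and 2.401 in knockout libraries and 2.4007, 2.496 and 2.43 in control libraries, and the groups overlapped. Placed by position, as above, the summed levels gave ratios of 2.59, 2.74 and 2.71 in knockout libraries and 2.75, 2.86 and 2.82 in control libraries, without overlap. The planned comparison of the subunits was the difference of the medians, and no ratio of sums was planned. The ratio by position and the one per length were computed after the values were seen.

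**Figure D4:**
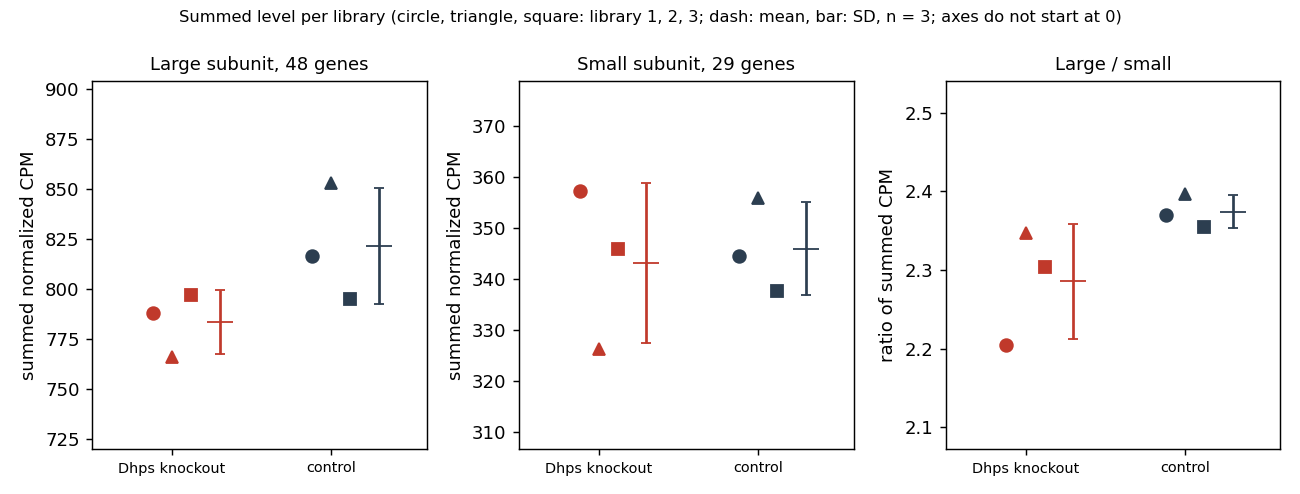
Summed normalized CPM per library of the large subunit (left), of the small subunit (middle) and their ratio (right), with Dhps knockout libraries left of control libraries. Circles, triangles and squares are libraries 1, 2 and 3, dashes the mean and bars the SD (n = 3), and the axes do not start at 0. The sums overlap between groups, and the ratios, from 2.20 to 2.35 in knockout and 2.36 to 2.397 in control libraries, do not.

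Knockout library 2 and control library 2 stood at the ends of the range. Knockout library 2 had the lowest value of the 6 for 22 of 77 members, against 16.9% of all genes, and control library 2 the highest for 23 of 77, against 16.2% of all genes. The summed level of all 77 members was 1145, 1092 and 1143 CPM in knockout libraries and 1161, 1209 and 1133 CPM in control libraries. Without knockout library 2, 43 of 77 members lay below 0, and without control library 2 also 43.

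Levels differed far more between members than between groups. Per kilobase of the deposited length, the mean over the 6 libraries spanned 81.2-fold, from 1.28 CPM for Mrps25 to 104 CPM for Mrpl52. In the large subunit the highest were Mrpl52 (104 ± 8.96 CPM per kilobase), Mrpl33 (97.8 ± 10.6) and Mrpl20 (61.0 ± 3.95), and the lowest were Mrpl1, a protein of the L1 stalk (1.99 ± 0.149), Mrpl41 (2.25 ± 0.441) and Mrpl35 (2.76 ± 0.394). In the small subunit by symbol, Mrps21 (51.4 ± 10.6), Mrps18c (31.2 ± 5.42) and Mrps18a (27.4 ± 3.20) were the highest. Of these, Mrps18a encodes a large subunit protein, as given above. Mrps25 (1.28 ± 0.192), Mrps5 (2.49 ± 0.602) and Mrps31 (3.13 ± 0.312) were the lowest (SD over 6 libraries). Some neighbours in this order differed by less than the SD of either. These were Mrpl52 and Mrpl33, Mrpl35 and Mrpl19 (2.83 ± 0.344), and Mrps18a and Mrps17 (26.7 ± 2.37). So the highest place in the large subunit is not resolved. Nor is the third place from the low end of the large subunit or from the high end of the small subunit. Mrps18c and Mrps18a differed by less than the SD of Mrps18c but by more than that of Mrps18a, and Mrpl1 and Mrpl41 by less than the SD of Mrpl41 but by more than that of Mrpl1. The deposited length counts every annotated exon, and reached 6065 bases for Mrps25, 4188 for Mrpl1 and 6712 for Mrpl17. The median was 11.7 CPM per kilobase in the large subunit, 9.27 in the small subunit and 6.83 over all genes. All 77 members exceeded 1 CPM in all 6 libraries, so that none was in the table through 1 group alone.

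**Figure D5:**
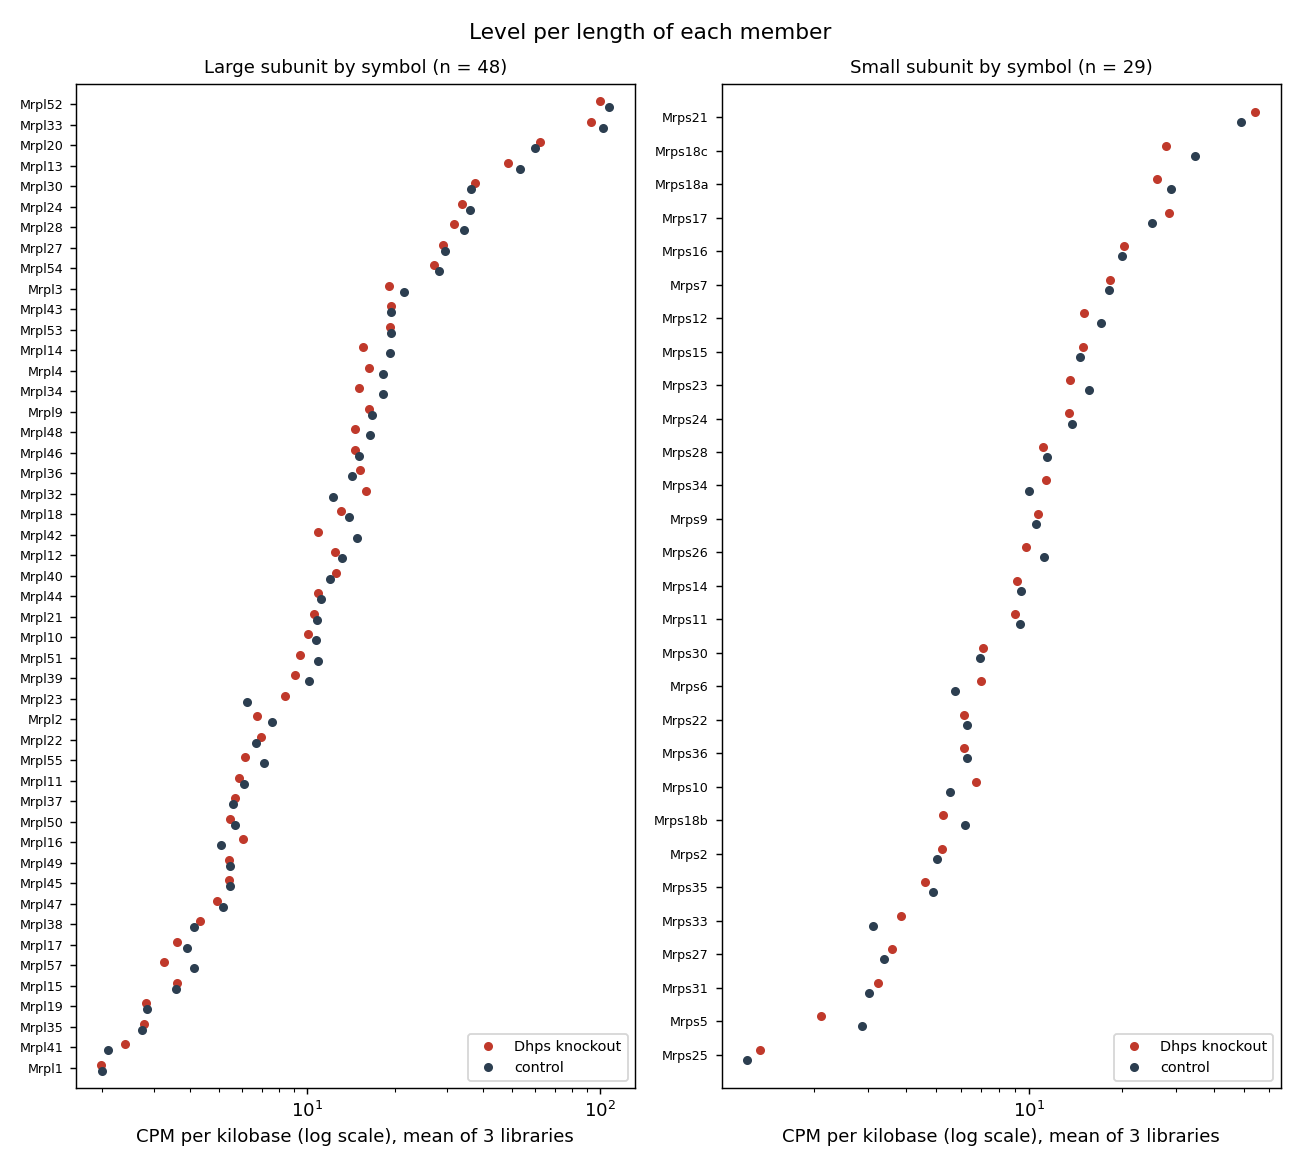
Mean normalized CPM per kilobase of deposited gene length (horizontal log axis) for each member in Dhps knockout libraries (red) and control libraries (dark blue), ordered by the mean over all 6 libraries within the large (left panel) and the small subunit (right panel). The 2 points of a gene lie close together compared with the 81.2-fold span between genes.

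The members lie on 17 chromosomes, with 10 of the 77 on chromosome 11 and 8 on chromosome 17. By the gene starts of GENCODE, 25 of 77 members (32.5%) had a protein-coding gene that starts within 500 bases on the opposite strand, head to head, against 14.4% of 9870 other measured protein-coding genes. Of the genes with printed promoters, Mrpl32 stands in this way next to Psma2, with 75 bases between the starts, Mrpl57 next to Ska3 (49 bases) and Mrps18c next to Helq (29 bases). Measured from the starts of the deposited exons of the member, the gaps were 203, 54 and 161 bases, and 26 of 77 members had such a neighbour. Mrpl46 and Mrps11 are such a pair within the family, and by the GENCODE starts they overlap. The deposited exons do not, since those of Mrpl46 end at 78783089 and those of Mrps11 begin at 78783131. The log2 changes of Mrpl46 and Mrps11 were -0.043 and -0.046. Exonic bases were shared with another annotated gene in 23 members and made up over 10% in 17 and over 50% in 4, namely Mrps18b, Mrps34, Mrps25 and Mrpl53. Whether the counting used strand is not stated in the sources used here, so that reads in stretches shared with the opposite strand cannot be assigned with certainty. In stretches shared on the same strand, strand would not separate the reads. Mrpl53 shares 100% of its exonic bases in this way with Gm42688. Mrpl33, among the highest per length, shares 38.0% with Gm43809 on the same strand. The annotation also holds pseudogenes named after Mrpl48 and Mrps36, whose reads the counting could split.

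Genes that work with the mitochondrial ribosome showed no change that passed either, over fixed lists that do not overlap the members. Among 6 ribosomal proteins with other symbols 4 lay below 0, and Dap3, a small subunit protein, had the smallest p. It stood at 11.6, 10.2 and 12.2 CPM in knockout libraries, against 14.1, 12.4 and 15.3 CPM in control libraries, without overlap (log2 change -0.29, adjusted p = 0.802 in edgeR's test). Dap3 was the only gene of the 6 without overlap (16.7%, against 11.2% of all genes). Ict1, a release factor built into the large subunit, had a log2 change of -0.22, and Chchd1 one of -0.096.

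Of 24 measured genes for ribosome assembly and rRNA modification, 12 lay below 0 and the median was -0.00039. Ybey, an endonuclease for ribosomal RNA, was at 2.75, 2.25 and 2.45 CPM in knockout libraries, against 1.29, 1.54 and 0.957 CPM in control libraries (log2 change 0.95, SE 0.31, adjusted p = 0.533). Mtg2, a GTPase of large subunit assembly, was at 3.51, 3.64 and 4.05 CPM in knockout libraries, against 4.71, 5.91 and 5.30 CPM in control libraries (-0.51, SE 0.21, adjusted p = 0.699 in edgeR's test). In both genes the groups did not overlap, and in no other of the 24 (8.33%, against 11.2% of all genes). Rpusd4, a pseudouridine synthase, had a log2 change of -0.28 with overlapping groups.

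Of 16 translation factors and partners of mitochondrial mRNA, 11 lay below 0 and the median was -0.071. Oxa1l, which inserts the nascent proteins into the inner membrane, stood at 9.70, 8.76 and 10.5 CPM in knockout libraries, against 11.4, 14.1 and 11.5 CPM in control libraries (log2 change -0.35, SE 0.15, adjusted p = 0.737 in edgeR's test). Its groups did not overlap, as in 12.5% of the 16 genes, against 11.2% of all genes. The release factor genes Mtrf1 and Mtrf1l had log2 changes of 0.58 and -0.32 (adjusted p = 0.822 and 0.900).

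Of 20 mitochondrial aminoacyl-tRNA synthetase genes, 14 lay below 0, with a median of -0.080. Lars2 stood apart in 1 library, with 382, 24.6 and 18.0 CPM in knockout libraries, against 42.9, 15.4 and 14 CPM in control libraries (log2 change 2.55, SE 0.79, adjusted p = 0.462). Nars2 and Vars2 had log2 changes of -0.62 and -0.61 (adjusted p = 0.834 and 0.861 in edgeR's test).

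Of 18 genes for mitochondrial DNA, transcription and RNA processing, 7 lay below 0 (median 0.016). Fastkd1, of a family that binds mitochondrial RNA, was at 2.68, 3.10 and 2.70 CPM in knockout libraries, against 3.36, 4.82 and 4.96 CPM in control libraries (log2 change -0.63, adjusted p = 0.672 in edgeR's test). It was the only gene of the 18 without overlap (5.56%, against 11.2% of all genes). Fastkd3 and the helicase gene Peo1 had log2 changes of 0.28 and 0.49, with overlapping groups. Of 9 nuclear regulators of mitochondrial genes, 4 lay below 0 (median 0.12). Yy1 stood at 60.9, 63.7 and 56.6 CPM in knockout libraries, against 52.0, 50.9 and 55.9 CPM in control libraries, with no overlap and no call (log2 change 0.19, adjusted p = 0.807). No other of the 9 regulators was without overlap (11.1%, against 11.2% of all genes). Esrra (-0.14) and Gabpa (0.12) had overlapping groups. None of the 15 listed genes of mitochondrial DNA was in the table, so the products that this ribosome translates were not analysed here.

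Of 74 cytosolic ribosomal protein genes, the closest family, none passed at an adjusted p under 0.05. At an unadjusted p under 0.05 there were 4, all on the lower side, against 6.48% of all genes (2.64% on the lower side). Their median log2 change was -0.072 with 59 below 0, beside -0.029 and 47 of 77 for the mitochondrial family. Over all genes the median was -0.0044 and 51.3% lay below 0. The cytosolic genes are shorter still than the members, with median deposited lengths of 717.5 and 1053 bases. The trend over gene length was not removed from these values. The families were not tested against each other.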

How the data were processed

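Gene counts of 6 libraries of bone marrow-derived macrophages were analysed, sequenced on Ion Proton per the labels' protocols. The deposited table holds raw read counts per gene, which the authors had not normalized, and the deposited exon length, another kind of value. Tools named in the submitters' processing notes, without role or order, are featureCounts, edgeR, Subread (1.5.0) and STAR (2.4.2a), with mm10 as the build. In each gene the third highest value was at least 1 CPM, so low genes had been left out of the deposited table. 0 columns of per-sample values were unused.

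Counts were tested with edgeR 4.0.16 (quasi-likelihood, two-sided, genotype only) in R 4.3.3, after TMM scaling and filterByExpr with a minimum count of 10, which removed 0 genes. P-values were adjusted (Benjamini-Hochberg) over 10551 genes, with a limit of 0.05. SE is the log2 change divided by the square root of F. The biological coefficient of variation was 10.7%. Within groups log2 CPM (pseudocount 0.5) correlated at 0.989 to 0.992 across genes, and between groups at 0.988 to 0.992. On simulated data the test recovered most genes changed by 2-fold or more. The fitted changes of the members were all smaller (-0.44 to 0.42 on the log2 scale), and this recovery does not speak for changes of that size. False calls exceeded the nominal share where dispersions were drawn gene by gene and did not where they followed the trend.

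Named are Dhps and the 6 members of each subunit with the smallest p. So are the 3 highest and 3 lowest per length, the Mrps18 paralogs, Mrps30 and Mrps36. Of each list of genes that work with the mitochondrial ribosome, the 3 genes with the smallest p are named. Chosen after values were seen, and not tested, were other members named, the split by bacterial counterpart, the cytosolic family, the splits by motif, the search for divergent starts, the ratios by position and per length, and which promoters are printed. The ratio of the summed levels was not planned and was not tested. The rule for members reads only symbols, but this family and the lists were chosen with earlier results of these data known. Alternatives were other scalings, other filters, DESeq2 1.42.0, limma-voom (limma 3.58.1), a replicate block, each library left out, removal of a length trend, and subunits by position. Overlaps used GENCODE M21.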

Additional observations from a re-analysis of the deposited data

How the results depend on the processing

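In all alternatives with a test, 0 of 77 members were called, and none of the 325 refits of the 25 named members passed the adjusted limit. The number of members at an unadjusted p under 0.05, 3 in the reported fit, was 1 with no size factor, 1 in limma-voom and 0 in DESeq2. The shares of all genes at that limit were 6.41%, 6.31% and 5.05% in these fits. With a library left out, 0 to 5 members met it, and 4.88% to 7.87% of all genes. Leaving out control library 2 gave 0, knockout library 1 gave 5, and knockout library 2 or 3 gave 1. The median of the large subunit was -0.071 to -0.032 with a library left out. That of the small subunit ran from -0.021 (without knockout library 1) to 0.023, was also below 0 if control library 1 (-0.015) or control library 3 (-0.0045) was omitted, and was 0.047 with the length trend removed. The difference of the medians was -0.079 to -0.011 with a library left out. Members below 0 numbered 43 to 51 with a library left out and 43 with no size factor, where 44.7% of all genes lay below 0. The count of members without overlap was 5 with each other scaling or filter tried, which was added after seeing the data.

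Small changes turned sign with a library left out, with ranges of -0.083 to 0.19 for Mrpl35, -0.051 to 0.090 for Mrpl1, -0.015 to 0.094 for Mrps30, -0.0027 to 0.20 for Mrps31, -0.17 to 0.13 for Mrps36 and -0.035 to 0.32 for Mrps21. Mrps36 was at 0.0012 with no size factor. Mrpl23 ranged from 0.016 to 0.63, Mrpl42 from -0.68 to -0.29 and Mrpl32 from 0.23 to 0.55.

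Replicate numbers are shared by the groups, but the labels tie them to no animal or day. Deviations of same-numbered libraries from their group means correlated at 0.158, 0.022 and 0.157. Over all pairs of a knockout and a control library the range was -0.208 to 0.158, and 4 of 6 libraries correlated best with their own number. These values and the labels cannot settle whether the numbers mark pairs. The reported fit took the samples to share only a number. With the replicate block 35 genes were called in place of 11, and 0 members. At an unadjusted p under 0.05 there were 4 members, against 8.52% of all genes, and 48 members lay below 0. The medians with the block were -0.049 (large) and 0.015 (small), and their difference was -0.064. Dhps was called with the block (log2 change -0.61, adjusted p = 0.033 in edgeR's test). DESeq2 called 22 of all genes.

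Mrpl23 had 28 to 107 counts per library and Mrps5 had 31 to 73, and their intervals hold changes of over 1.5-fold. Mrpl47, with 54 to 79 counts, had an interval within a 1.5-fold change. The part of depth in these widths was not tested.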
